A study of Mus musculus with 19 samples.

Results

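The bone morphogenetic protein (BMP) and Nodal pathway ligands were followed as 10 genes: the BMP ligands Bmp2, Bmp4, Bmp5, Bmp6 and Bmp7, the ligands Nodal and Gdf3, the co-receptor Tdgf1, and the inhibitors Lefty1 and Lefty2. They were taken by symbol from the gene tables, where each had 1 RefSeq transcript, so that they made up 10 of 30455 transcripts and 10 of 23337 symbols. The tables held 11 RNA-seq libraries of mouse visceral yolk sac (VYS), fetal liver and cystic embryoid bodies (EBs), which are fluid-filled aggregates differentiated from embryonic stem (ES) cells, and the study asked whether cystic EBs model VYS endoderm (ysE).

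The tissue libraries came from FVB mice with no other genotype or treatment given: ysE at E9.25 (2 libraries) and E12.5 (1), the mesodermal layer at E9.25 (2), and fetal liver at E12.5 (2). Each E9.25 sample pooled a whole litter. The 4 EB libraries came from C57Bl/6x129 ES cells at d10 and d15 of differentiation, replicate A from clone A9 (XY) and replicate B from clone JN (XX), so that 1 clone stood behind each letter. Clone A9 and liver libraries were made with ScriptSeq, clone JN and E9.25 libraries with a dUTP method, and the E12.5 ysE library without strand information. Strain, culture and, in part, protocol therefore cannot be told apart from tissue in comparisons with EBs, and clone, sex and protocol cannot be told apart within EBs. The 6 methylation libraries came from E12.5 ysE, E12.5 liver and d15 EBs of CastxFVB (CxF) and FVBxCast (FxC) crosses, with EBs from CF clone C2 and FC clone A2, and the 1 H3K4me3 library from E12.5 VYS of FVB mice. Transcript counts summed to between 40453779 and 169981821 per library. The labels held up in outline: the summed RPKM of 7 ysE markers was at least 10987 in the 3 ysE libraries and at most 3169 elsewhere, and Kdr, an endothelial receptor, was at 47.1 and 47.0 RPKM in the mesoderm against 1.71 and 2.58 in E9.25 ysE. Afp, the main ysE secretory product, still reached 700.4 and 1255 RPKM in the mesoderm libraries, which were collected with vessels and blood. RPKM (reads scaled to transcript length and library size) sets levels of different genes side by side. It does not correct for uneven placement of reads along a gene, which differed between the EB clones and their protocols for some members. Fold changes below are from counts.

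BMPs are secreted dimers that bind type I and type II serine/threonine kinase receptors and lead to phosphorylation of Smad1, Smad5 and Smad9. Nodal signals through activin receptors, Smad2 and Smad3 and needs an EGF-CFC co-receptor such as the product of Tdgf1 (Cripto), whereas Lefty proteins block it and are themselves induced by it. Nodal signalling patterns the early embryo and maintains pluripotency-associated programmes, and BMPs act in mesoderm, blood island and amnion formation.

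The 5 BMP ligands split between the VYS layers. Bmp2, Bmp4 and Bmp5 were low in ysE and high in the mesoderm, while Bmp6 and Bmp7 were higher in ysE. Bmp4, which is required for extra-embryonic mesoderm, lies at chr14:46383525-46390669 (GRCm38.p6, minus strand) and read 0.538 and 0.694 RPKM in E9.25 ysE against 18.3 and 17.6 in the mesoderm. The layers did not overlap, and Bmp4 was 23.3-fold lower in ysE (log2 fold change -4.54 ± 0.55 SE, n = 2 and 2 libraries, adjusted p = 0.000442, edgeR quasi-likelihood test with Benjamini-Hochberg adjustment). Bmp5, a BMP of the 60A group, read 0.258 and 0.346 RPKM in E9.25 ysE and 10.2 and 9.86 in the mesoderm, and fell by 4.73 ± 0.83 on the log2 scale (adjusted p = 0.00259, edgeR). Bmp2, the closest relative of Bmp4, read 0.153 and 0.279 RPKM in ysE against 2.05 and 1.76, a 7.02-fold difference (adjusted p = 0.000894, edgeR). In bulk tissue, fewer cells of a type and less RNA per cell cannot be told apart. Of all 24858 transcripts tested, 16.9% were called lower in ysE and 13.7% higher, beside 3 and 2 of the 10 members.

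Bmp7, another ligand of the 60A group, was the leading BMP in ysE. It read 11.6 and 14.3 RPKM in E9.25 ysE and 1.78 and 3.27 in the mesoderm, a 6.37-fold difference (log2 fold change 2.67 ± 0.55 SE, adjusted p = 0.00534, edgeR). Bmp6, known in adults as a regulator of iron metabolism, read 3.28 and 4.49 RPKM against 1.27 and 1.62, a 3.34-fold difference (adjusted p = 0.011, edgeR). Both were higher in each ysE library than in each mesoderm library. Their calls depended on single libraries: without mesoderm replicate A the adjusted p was 0.0546 for Bmp7 and 0.101 for Bmp6, and without ysE replicate B it was 0.0767 for Bmp6 (edgeR). The erythroid markers summed to 25331 and 20401 RPKM in the mesoderm and to 524.4 and 606.0 in E9.25 ysE. The 7 ysE markers summed to 1218 and 2164 RPKM in the mesoderm and to 10987 and 12379 in E9.25 ysE. The part of either cell type in these differences was not tested.

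As a share of the summed RPKM of the 5 BMP ligands, Bmp7 made up 73.4% and 71.2% in E9.25 ysE and 78.0% in E12.5 ysE. In the mesoderm Bmp4 made up 54.4% and 51.5%, and Bmp5 30.4% and 28.9%. In liver, Bmp5 led with 55.7% and 61.2% of a sum of 7.05 and 5.75 RPKM. The leading ligand therefore differed between ysE, mesoderm and liver, and was the same in all libraries of each of those tissues. Liver libraries were of another protocol, and the part of read placement along these genes in the shares was not tested.

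**Figure D1:**
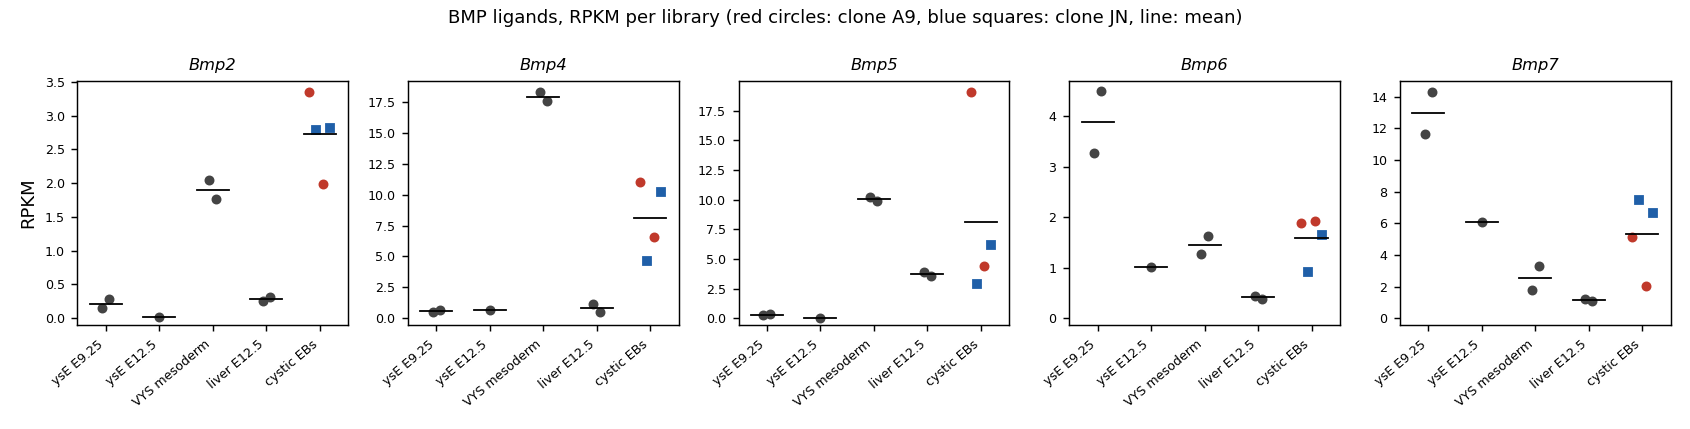
RPKM of the 5 BMP ligands (y axis, linear, a scale per gene) in each RNA-seq library by tissue (x axis), with points for libraries and lines for means. Bmp4 and Bmp5 were highest on average in the VYS mesoderm, Bmp6 and Bmp7 in E9.25 ysE, and the 4 cystic EB libraries varied most for Bmp5, from 2.87 to 19.0 RPKM.

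From E9.25 to E12.5 the ysE ligands could be set against 1 library of another protocol. Bmp7 read 6.07 RPKM and Bmp6 1.01 RPKM at E12.5, both below the 2 E9.25 libraries, with adjusted p of 0.302 and 0.0526 (edgeR). Bmp5 had no count, against 235 counts in the E9.25 libraries together, which makes it at least 11.64-fold lower when 3 counts are taken as the floor over the group and the levels are scaled by TMM, as for all such bounds and ratios here (adjusted p = 0.0625, edgeR). Bmp2 had 2 counts against 172, a ratio of 12.4 with a 95% counting interval, for the low group only, of 3.44 to 102.5 (adjusted p = 0.0165, edgeR), and was the only member called; without E9.25 ysE replicate B its adjusted p was 0.0659, and limma on log2(RPKM + 0.1) and log2(RPKM + 1) gave 0.076 and 0.659. DESeq2 also called Bmp5 and Bmp6 lower (adjusted p = 0.0091 and 0.0057), and limma called Bmp6 lower with either pseudocount (0.0457 and 0.0324). Markers of some other cells were lower at E12.5 too. The 4 endothelial markers summed to 0.193 RPKM against 4.99 and 6.98, with Kdr, Pecam1 and Tek called lower. The 5 mesenchymal and mesothelial markers summed to 18.6 against 31.1 and 48.3, with Wt1 and Vim called lower. The 5 erythroid markers summed to 26.7 against 524.4 and 606.0, with 3 called lower. The 3 macrophage markers were mixed. Their sum was 9.57 against 2.20 and 2.83, but of them only Csf1r was higher (8.59 RPKM against a mean of 1.02). Ptprc and Cd68 were lower, with log2 fold changes of -2.87 and -0.60. The part of these cell types in the Bmp2 and Bmp5 differences was not tested. Bmp4, at 0.686 RPKM, lay within the range of the E9.25 libraries (adjusted p = 0.983, edgeR). Over all transcripts 4.57% were called lower and 3.9% higher at E12.5, 1137 against 969. This split turned to 876 against 1240 with DESeq2 size factors, so that the numbers called each way depend on the scaling.

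In cystic EBs, as in the mesoderm, the mean of each of the 5 BMP ligands was above 1 RPKM. The mesoderm libraries also held ysE markers, and the part of ysE cells in their Bmp6 and Bmp7 levels was not tested. Bmp4 read 10.999 and 6.57 RPKM in clone A9 (d10, d15) against 4.65 and 10.2 in clone JN. Against E9.25 ysE, Bmp4 was 9.55-fold higher (log2 fold change 3.26 ± 0.49 SE, n = 4 and 2, adjusted p = 0.000619, edgeR), Bmp2 9.19-fold higher (2.73 ± 0.56 SD against 0.216 ± 0.089 RPKM, adjusted p = 0.000185, edgeR) and Bmp5 19.5-fold higher (adjusted p = 0.0018, edgeR), or 10.8-fold without clone A9 at d10. Bmp6 was 3.33-fold and Bmp7 3.35-fold lower (adjusted p = 0.00241 and 0.00802, edgeR), and no EB library reached the lower of the E9.25 ysE libraries in either gene. Without ysE replicate B the adjusted p for Bmp7 was 0.07. With the 5 Nodal pathway members described below, 8 of 10 members were higher and 2 lower, while 27.1% of all transcripts were higher and 23.2% lower.

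Set against the mesoderm, 1 of the 5 BMP ligands was called, Bmp4, which was 2.44-fold lower in EBs (8.10 ± 2.9998 SD, n = 4, against 17.9 ± 0.52 RPKM, n = 2, adjusted p = 0.0358, edgeR), and it lost the call when 1 library was left out: the adjusted p was 0.147 and 0.154 without mesoderm replicate A or B, 0.0599 without either E9.25 ysE library and 0.0646 without clone A9 at d15. Limma on log2(RPKM + 0.1) gave 0.0511. Bmp2, Bmp5, Bmp6 and Bmp7 overlapped between EBs and mesoderm (adjusted p of 0.389, 0.6, 0.992 and 0.156, edgeR). With clone A9 left out, an alternative added after the values were seen, Bmp5 was lower by a log2 fold change of -1.35 (adjusted p = 0.0114) and Bmp7 higher by 1.29 (adjusted p = 0.0112, edgeR). With dUTP libraries only, which also leaves clone JN against mesoderm, these were -1.30 (adjusted p = 0.0318) and 1.35 (adjusted p = 0.0302, edgeR). The 5 Nodal pathway members made the rest of the calls, all higher in EBs, beside 13.9% of all transcripts higher and 15.0% lower.

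Against E12.5 ysE, 6 members were higher and 0 lower in EBs, beside 21.1% and 18.8% of all transcripts. Among the BMP ligands, Bmp5 was at least 227.6-fold higher (0 counts in ysE), or at least 126.2-fold without clone A9 at d10, Bmp2 114.7-fold higher with a counting interval of 31.7 to 946.7 (2 counts in ysE), and Bmp4 9.09-fold higher (adjusted p = 0.00507, edgeR). Bmp6 and Bmp7 lay within the EB range (adjusted p = 0.635 and 0.437, edgeR).

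Fetal liver was the lowest tissue for Bmp6 and Bmp7. Bmp7 read 1.24 and 1.07 RPKM there and Bmp6 0.448 and 0.37, and EBs were 3.65-fold and 3.09-fold higher (adjusted p = 0.0127 and 0.0075, edgeR). Bmp2 and Bmp4 were 7.52-fold and 7.66-fold higher in EBs (adjusted p = 0.000353 and 0.00116, edgeR), whereas Bmp5, at 3.93 and 3.52 RPKM in liver, lay within the EB range (adjusted p = 0.334, edgeR). Without liver replicate A, Bmp4 was 13.7-fold higher in EBs and the adjusted p for Bmp7 was 0.0631, and without replicate B it was 0.0941 for Bmp7 and 0.0669 for Bmp6 (edgeR). With ScriptSeq libraries only, which leaves clone A9 against liver, Bmp7 lost the call (log2 fold change 1.32, adjusted p = 0.0685, edgeR). In all, 8 members were higher and 0 lower in EBs than in liver, beside 24.6% and 20.9% of all transcripts. Against E12.5 ysE, liver was higher in Bmp2 (2 counts in ysE, ratio 15.2 with a counting interval of 4.22 to 125.8, not called by limma on log2(RPKM + 1), adjusted p = 0.265) and Bmp5 (at least 132.2-fold), and 5.39-fold lower in Bmp7 (adjusted p = 0.00966, edgeR). Bmp6, with 0.0479, kept the call under 4 of 17 alternatives, and its adjusted p was 0.0881 and 0.152 without liver replicate A or B. Without liver replicate B that of Bmp7 was 0.0525. These were 2 members each way, beside 23.7% of transcripts higher and 22.6% lower.

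Nodal, Gdf3, Tdgf1, Lefty1 and Lefty2 were highest in the cystic EBs. Nodal, the ligand at chr10:61417972-61425338 (plus strand), read 2.27 and 1.24 RPKM in clone A9 against 6.73 and 6.21 in clone JN. Elsewhere it lay between 0 and 0.687 RPKM, the highest of these being the E12.5 ysE library with 62 counts. The EBs were 40.4-fold higher than E9.25 ysE (log2 fold change 5.34 ± 1.25 SE, adjusted p = 0.0064, edgeR), 139.2-fold higher than mesoderm (adjusted p = 0.00579) and 18.8-fold higher than liver (adjusted p = 0.0162), and not called against E12.5 ysE (adjusted p = 0.234). The call lapsed without ysE replicate A (adjusted p = 0.0635) and without liver replicate A or B (0.111 and 0.0559). The sizes rest on few counts: the mesoderm libraries held 0 and 14, and the fold was 72.1 without replicate A, while without replicate B the remaining mesoderm library had no count. The fold was 94.3 without ysE replicate B, and 12.2 and 40.2 without liver replicate A or B.

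Tdgf1, at chr9:110939608-110946158 (minus strand), was the most abundant member in EBs. It read 31.2 and 41.7 RPKM in clone A9 against 58.1 and 35.0 in clone JN, while the 7 tissue libraries lay between 0 and 0.072 RPKM. There were 0 counts in the E12.5 ysE library and in both liver libraries, which puts EBs at least 896.4-fold and at least 3554-fold higher, the latter at least 1647-fold or 1907-fold without liver replicate A or B. Against E9.25 ysE (22 counts in all) the difference was 825.5-fold and against mesoderm (28 counts) 639.9-fold (adjusted p = 2.14e-05 and 4.64e-05, edgeR), and the first was 1740-fold without ysE replicate B. No other member separated EBs from every tissue library by as wide a margin in RPKM.

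Gdf3, a Nodal-related ligand that can also bind BMPs, read 0.562 and 0.721 RPKM in clone A9 against 4.07 and 2.73 in clone JN. The E9.25 ysE libraries held 3 counts in all, so that EBs were 309.5-fold higher with a counting interval of 105.9 to 1501 (adjusted p = 0.00248, edgeR), and at least 47.3-fold higher than E12.5 ysE. Without clone JN at d10 these were 200.1-fold and at least 30.6-fold, and the first was 559.7-fold and 184.4-fold without ysE replicate A or B, which held 2 counts and 1. Limma on log2(RPKM + 1) did not call Gdf3 against E12.5 ysE (adjusted p = 0.0795). Against mesoderm the difference was 74.7-fold (adjusted p = 0.00936, edgeR), on mesoderm counts of 0 and 13. Without mesoderm replicate A it was 38.7-fold (adjusted p = 0.0539), without replicate B the remaining library had no count, and without clone JN at d10 it was 48.5-fold. Liver was the only tissue with a level near that of clone A9, at 0.371 and 0.286 RPKM, and EBs, though higher in every library, were not called apart from liver by edgeR (adjusted p = 0.106). They were called higher by DESeq2 (adjusted p = 0.0446), by limma on log2(RPKM + 0.1) (0.0464) and by edgeR with clone A9 left out (0.00868), the last added after the values were seen.

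The inhibitors lie next to each other, Lefty1 at chr1:180935022-180938401 and Lefty2 at chr1:180893108-180899107, and are paralogs. How reads that match both were assigned was not tested. E9.25 ysE replicate B held 146 counts for Lefty1 and 3 for Lefty2, and liver replicate B 73 and 0. Lefty2 read 4.51 and 6.51 RPKM in clone A9 against 6.32 and 2.13 in clone JN, and at most 0.021 in any tissue library. It was 501.1-fold higher in EBs than in E9.25 ysE (adjusted p = 9.63e-05, edgeR), 327.3-fold higher than in mesoderm (adjusted p = 0.00031, edgeR, and 670-fold or 212-fold without mesoderm replicate A or B) and at least 135.6-fold higher than in E12.5 ysE. Against liver, where replicate A had 2 counts and replicate B none, the ratio was 806.4 with a counting interval of 223.2 to 6659. It was at least 249.2 without replicate A and 432.7 without replicate B. Lefty1 read 1.04 and 1.13 RPKM in clone A9 but 20.4 and 9.45 in clone JN, over 0.288 to 0.737 RPKM in the tissues, and was not called between ysE and mesoderm, ysE stages, or liver and E12.5 ysE. Its calls depended on single libraries and on the tool: the adjusted p was 0.0297 against E9.25 ysE, 0.0287 against mesoderm and 0.0337 against liver (edgeR), and it was not called against E12.5 ysE (0.167). With clone JN left out (added after the values were seen), Lefty1 had log2 fold changes of 0.96 against E9.25 ysE and 0.98 against liver. The adjusted p was then 0.0891 and 0.0962 (edgeR), and all libraries together gave log2 fold changes of 3.83 and 3.81. Against E12.5 ysE it was called by DESeq2 (adjusted p = 0.0336) and with clone A9 left out (0.00119, edgeR). With only the groups compared in the edgeR fit it was 0.0593 against E9.25 ysE, 0.0646 against mesoderm and 0.0698 against liver, and limma on log2(RPKM + 1) gave 0.101, 0.11 and 0.104. Leaving out E9.25 ysE replicate A or B gave 0.158 and 0.12 against ysE, mesoderm replicate A or B 0.162 and 0.157 against mesoderm, and liver replicate A or B 0.173 and 0.123 against liver. The call against liver also lapsed without E9.25 ysE replicate A or B (0.0507 each), clone JN at d10 (0.0509) or clone JN at d15 (0.0569), and with ScriptSeq libraries only (log2 fold change 0.96, adjusted p = 0.169). Without clone JN at d10 the fold was 6.65 against E9.25 ysE, 11.3 against mesoderm and 6.53 against liver, where all libraries gave 14.2, 24.3 and 14.0. Gm39715 overlaps Lefty1, Gm15222 Bmp4, Gm40010 Bmp7, and 4930579J19Rik and Txndc5 overlap Bmp6, and reads of genes on opposite strands cannot be told apart in the E12.5 ysE library.

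**Figure D2:**
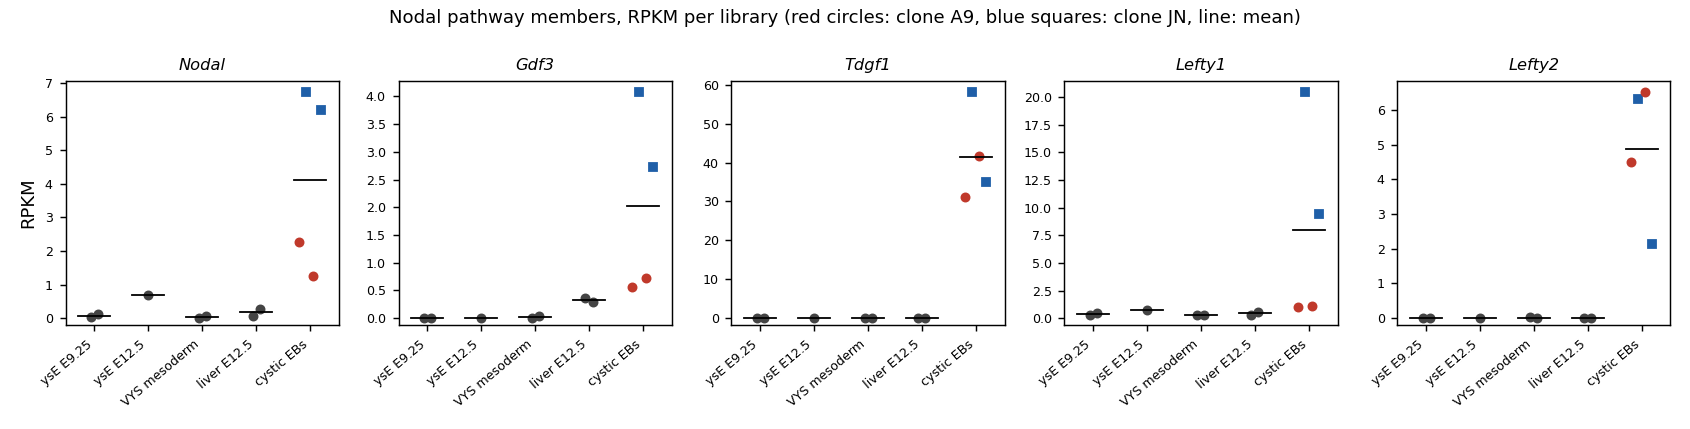
RPKM of Nodal, Gdf3, Tdgf1, Lefty1 and Lefty2 (y axis, linear, a scale per gene) in each RNA-seq library by tissue (x axis), with points for libraries and lines for means. All 4 cystic EB libraries lie above the 7 tissue libraries for each gene, and clone JN lies above clone A9 for Nodal, Gdf3 and Lefty1.

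The summed RPKM of the 5 Nodal pathway members was 39.6 and 51.3 in clone A9 against 95.6 and 55.5 in clone JN, against 0.377 to 1.42 in the tissue libraries. The summed RPKM of the 6 pluripotency markers was 93.0 and 111.3 in clone A9 against 195.2 and 122.5 in clone JN, against 0.051 to 5.88 elsewhere, and Pou5f1, a defining gene of pluripotent cells, reached 39.1 to 76.8 RPKM. The part of remaining pluripotent cells in the levels of these 5 members was not tested. The 4 cardiac muscle markers summed to between 7.72 and 65.1 RPKM in the 4 EB libraries, to 11.2 and 2.68 in liver and to at most 0.677 in the VYS libraries.

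Within cystic EBs, 3 members differed between clones. Lefty1 was 13.3-fold higher in JN (log2 fold change 3.73 ± 0.47 SE, n = 2 and 2, adjusted p = 0.00772, edgeR), Gdf3 5.07-fold higher (adjusted p = 0.0208) and Nodal 3.54-fold higher (adjusted p = 0.0269). These 3 compare with 7.9% of the 22452 transcripts called higher in JN and 4.64% lower. Without clone JN at d10 the adjusted p was 0.138 for Nodal and 0.118 for Gdf3, and without clone JN at d15 it was 0.0849 for Nodal. Lefty1 was 7.94-fold higher without clone JN at d10. Bmp5 was called lower in JN without clone A9 at d15 (adjusted p = 0.00488), and Bmp7 higher without clone A9 at d10 (0.0304). Counted over the whole transcript, Tdgf1 and Lefty2 overlapped between clones, at an adjusted p of 0.583 and 0.623, as did Bmp2, Bmp4 and Bmp5. For Tdgf1 and Lefty2, reads in the part of the gene with most reads were less frequent in JN. Reads outside that part were more frequent in JN, as given below. Nanog, a pluripotency gene, was called higher in JN with a log2 fold change of 2.94 (30.9 and 23.9 RPKM against 3.20 and 3.61, adjusted p = 0.00267, edgeR). The other pluripotency markers were not called (adjusted p of 0.066 to 0.9, edgeR). Utf1, Zfp42, Esrrb and Sox2 had log2 fold changes of 2.28, 1.24, 0.65 and 0.53, and Pou5f1 had -0.08. The part of these genes in the difference between clones was not tested.

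The ratio of the Lefty paralogs turned over between clones: Lefty1 over Lefty2 in RPKM was 0.229 and 0.174 in clone A9 against 3.24 and 4.43 in clone JN. Between d10 and d15, no member was called in either direction, and 0.0% of all 22452 transcripts were called by edgeR, with 304 at an unadjusted p under 0.05 and 11 by DESeq2. With the ES clone as a replicate block, 0 were called and 2392 had an unadjusted p under 0.05.

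**Figure D3:**
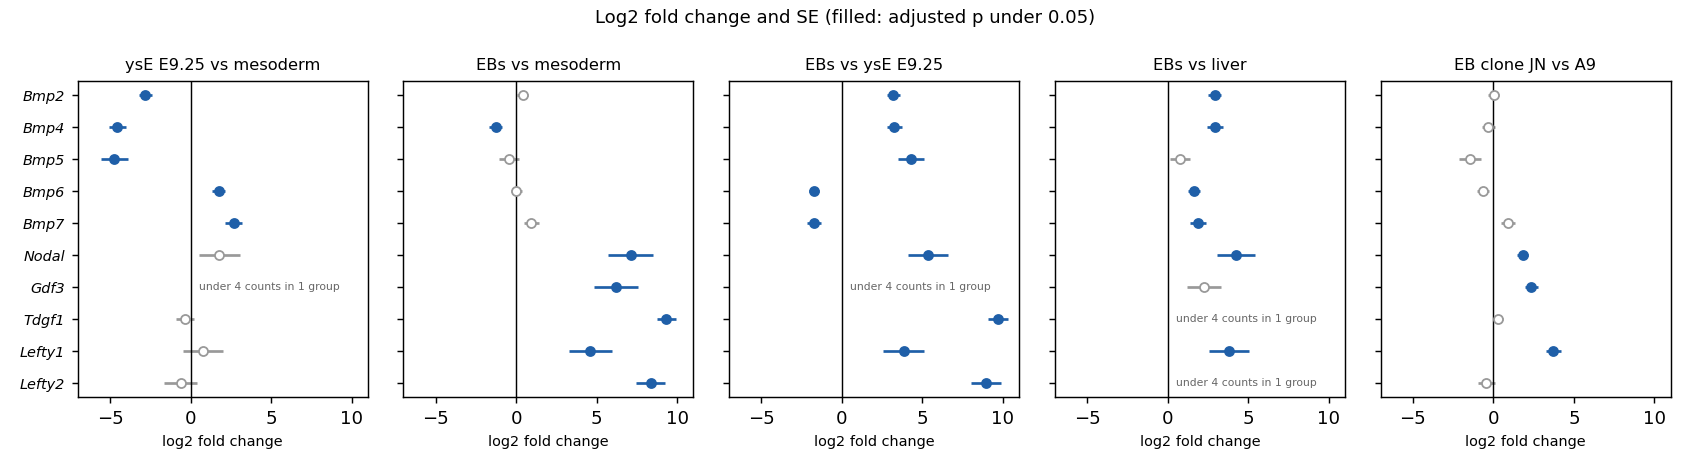
Log2 fold change (x axis) with its SE for the 10 members (y axis) in 5 comparisons, filled where the edgeR adjusted p is under 0.05. Members whose count is 3 or fewer in 1 group have no point. Bmp2, Bmp4 and Bmp5 lie left of 0 and Bmp6 and Bmp7 right of 0 in the comparison of VYS layers, and Lefty1, Gdf3 and Nodal lie right of 0 between clones.

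Reads over Tdgf1 were placed differently in the clones. Exon-part counts, which split a gene into numbered, non-overlapping pieces, put 94.9% and 93.9% of clone A9 Tdgf1 reads in part 1 against 59.8% and 58.9% in clone JN. In clone A9 parts 2 to 4 together received few reads: 0, 4 and 9 at d10 against 814, 756 and 830 in clone JN. Scaled to each library's exon-part total, reads outside part 1 were 8.24-fold more frequent in clone JN, while part 1 itself was at 0.725 times the clone A9 level. A difference between clones of at least this size in the share of 1 part was found in 3.37% of 10679 genes with at least 100 reads in every EB library. This comparison was made after the values were seen, and protocol and clone cannot be told apart in it.

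Lefty2 had 87.7% and 90.8% of its clone A9 reads in part 6, against 59.3% and 65.4% in clone JN, and 8.71% of the 10679 genes differed by at least as much. Reads outside part 6 were 2.81-fold more frequent in JN, and those in part 6 were at 0.509 times the clone A9 level. In clone A9 (d10, d15), reads outside part 6 numbered 70 and 68 for Lefty1 and 87 and 85 for Lefty2. In clone JN they numbered 2812 and 1309 for Lefty1 and 761 and 232 for Lefty2. Lefty1 was spread over its parts in both clones, with as large a difference between them in 20.9% of genes, and was higher in JN inside and outside part 6, 10.9-fold and 14.4-fold.

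**Figure D4:**
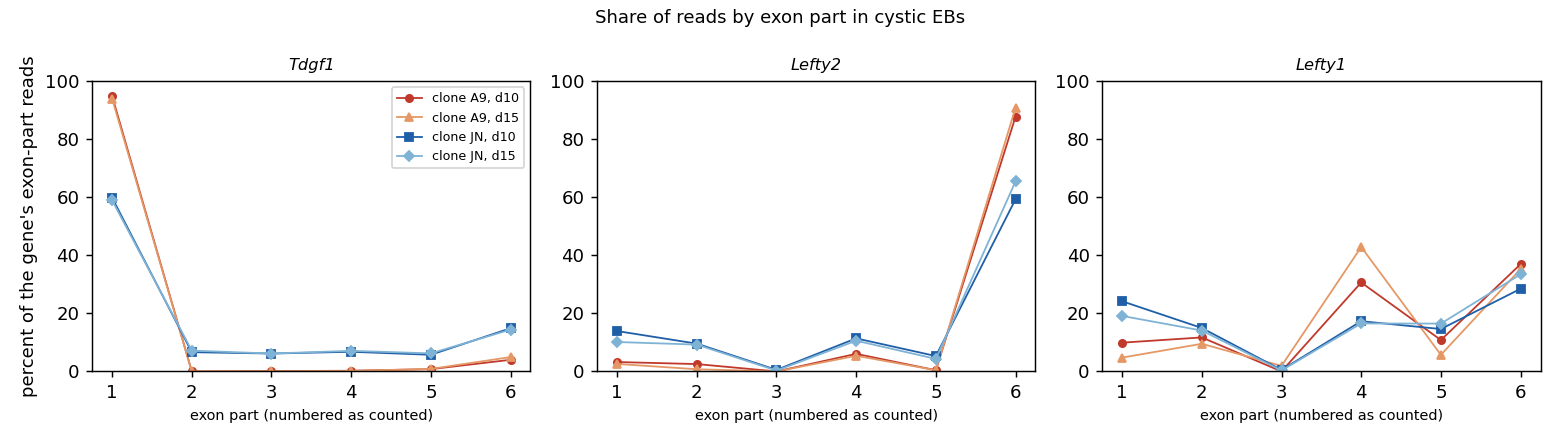
Percent of each gene's exon-part reads (y axis) in each exon part (x axis, numbered as counted) in the 4 cystic EB libraries, for Tdgf1, Lefty2 and Lefty1. Clone A9 has 94.9% and 93.9% of Tdgf1 reads in part 1, where clone JN has 59.8% and 58.9%.

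The other genes of the pathways were taken from 7 lists. Of 9 receptors, 0 were higher and 3 lower in E9.25 ysE than in mesoderm, among them Acvrl1, the endothelial BMP9 and BMP10 receptor (0.565 against 12.2 RPKM, log2 fold change -4.11, adjusted p = 0.00328, edgeR), beside 13.7% and 16.9% of all transcripts, and the median of the list was -0.77 beside -0.05. Bmpr1a, the widely expressed type I receptor, read 37.4 to 52.0 RPKM in EBs and 5.29 and 3.75 in liver, a log2 fold change of 3.06 (adjusted p = 3.98e-05, edgeR). Of 7 Smads and nuclear partners, Smad1, Smad2 and Smad9 were higher in ysE and Smad3 and Foxh1 lower, beside 13.7% and 16.9% of all transcripts, with a list median of 0.25 beside -0.05. Foxh1, the nuclear partner of Nodal-activated Smads, read 0.146 and 0.171 RPKM in E9.25 ysE and 2.89 and 3.38 in mesoderm, a log2 fold change of -3.98 (adjusted p = 0.00747, edgeR). Smad9, a BMP Smad, was the reverse, at 4.80 and 5.19 against 0.714 and 0.915 RPKM (log2 fold change 2.93, adjusted p = 0.00824, edgeR).

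Of 10 genes known to respond to BMPs, Id1 and Id2 were higher in E9.25 ysE than in mesoderm and Id4, Msx2, Bambi, Smad6 and Atoh8 lower, beside 13.7% and 16.9% of all transcripts, and the list median was -1.14 beside -0.05. Id2, a dominant inhibitor of helix-loop-helix factors, was at 109.4 against 15.7 RPKM (log2 fold change 3.12, adjusted p = 0.000953, edgeR). In EBs against liver, 9 of 10 were higher and 0 lower, including Msx1 and Msx2 with log2 fold changes of 6.71 and 5.63, beside 24.6% and 20.9% of all transcripts, and the list median was 2.39 beside 0.20. Against E9.25 ysE, 5 were higher in EBs and 2 lower, beside 27.1% and 23.2%, with a median of 1.004 beside 0.17.

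Of 8 genes known to respond to Nodal, 4 were higher in EBs than in E9.25 ysE (Eomes, Mixl1, T and Fgf8) and 1 lower (Foxa2, an endoderm factor), beside 27.1% and 23.2% of all transcripts, and the list median was 2.51 beside 0.17. T, the mesoderm factor Brachyury, read 5.61 and 1.24 RPKM in clone A9 against 11.2 and 5.41 in clone JN, with 1 count in the 2 E9.25 ysE libraries. Foxa2 was at 13.2 and 14.5 RPKM in E9.25 ysE and 0.725 and 1.88 in mesoderm (log2 fold change 3.72, adjusted p = 0.000347, edgeR), the 1 gene of the 8 called between layers, where 13.7% of all transcripts were higher and 16.9% lower. Against liver, 7 of 8 were higher in EBs and 0 lower, beside 24.6% and 20.9% of all transcripts, with a median of 4.71 beside 0.20. Between clones 0 of the 8 were called by edgeR, beside 7.9% and 4.64% of all transcripts, and the list median was 0.28 beside 0.01.

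Of 12 secreted antagonists 9 were higher in EBs than in E9.25 ysE and 0 lower, beside 27.1% and 23.2% of all transcripts, and the list median was 4.01 beside 0.17. Among them were Cer1, a Nodal and BMP antagonist, and Grem1 at 429 and 296 counts against 0. Of 9 co-receptors and processing enzymes 5 were higher in EBs than in E9.25 ysE (Cfc1, Rgma, Pcsk6, Bmp1 and Tll1) and 1 lower (Furin). This was beside 27.1% and 23.2% of all transcripts, and the list median was 1.70 beside 0.17. Cfc1, the other EGF-CFC co-receptor, read 2.07 to 6.28 RPKM in EBs and 0.038 and 0.04 in E9.25 ysE (log2 fold change 6.02, adjusted p = 0.000283, edgeR). Nog, a secreted BMP antagonist, was lower in E9.25 ysE than in mesoderm, with a log2 fold change of -2.97 (adjusted p = 0.0476, edgeR). Its level was low in both layers, at 0.0275 against 0.277 RPKM on 16 against 131 counts. Of the 9 co-receptors and processing enzymes, 1 was higher in E9.25 ysE than in mesoderm (Furin) and 3 lower (Bmp1, and Eng and Tll1 with log2 fold changes of -3.37 and -4.85), beside 13.7% and 16.9% of all transcripts. Among 24 other ligands of the TGF-beta family, of which 22 were tested, 11 were higher and 1 lower in EBs than in E9.25 ysE, beside 27.1% and 23.2% of all transcripts, with a median of 2.76 beside 0.17. Against liver 0 were higher and 7 lower, beside 24.6% and 20.9%, with a median of -0.13 beside 0.20. Those lower included Gdf2 (0.05 against 5.95 RPKM, log2 fold change -7.31) and Bmp10 (0.195 against 3.26 RPKM, log2 fold change -4.43).

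The genes most like each member of mean RPKM at least 1 were named from 16336 transcripts, and Gdf3 was below that mean. They were ranked by Pearson correlation of log2(RPKM + 1) over the 11 libraries, which share tissues and protocols. Tdgf1 was most like Pou5f1 (r = 0.999) and Otx2 (r = 0.993), and Lefty2 like Pou5f1 (r = 0.986) and Cyp26a1 (r = 0.983). Lefty1 was most like Dppa3 (r = 0.984) and Mir302a (r = 0.983), and Nodal like Tle4 (r = 0.992) and Ppp1r1a (r = 0.975). Bmp4 was most like B4galt4 (r = 0.988) and Hebp2 (r = 0.984), Bmp2 like Ldlrad3 (r = 0.992) and Mum1l1 (r = 0.988), and Bmp5 like Crispld1 (r = 0.969) and Pcdh7 (r = 0.964). Bmp7 was most like Kctd5 (r = 0.964) and D10Wsu102e (r = 0.959), and Bmp6 like Ankmy2 (r = 0.953) and Slc13a4 (r = 0.953). Among the members themselves, Tdgf1 and Lefty2 (r = 0.977) and Gdf3 and Lefty1 (r = 0.967) were the closest pairs.

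The starts of Bmp4, Bmp5, Nodal and Tdgf1 are shown because whole genome bisulfite sequencing (WGBS) and an H3K4me3 peak list bear on them. Each is the RefSeq sequence of 250 bases before the transcript start (GRCm38.p6), on the strand of the gene and 5′ to 3′, with CpG dinucleotides, the sites that WGBS reads, in capitals. They lie at chr14:46390670-46390919 (minus), chr9:75775115-75775364 (plus), chr10:61417722-61417971 (plus) and chr9:110946159-110946408 (minus).
Bmp4: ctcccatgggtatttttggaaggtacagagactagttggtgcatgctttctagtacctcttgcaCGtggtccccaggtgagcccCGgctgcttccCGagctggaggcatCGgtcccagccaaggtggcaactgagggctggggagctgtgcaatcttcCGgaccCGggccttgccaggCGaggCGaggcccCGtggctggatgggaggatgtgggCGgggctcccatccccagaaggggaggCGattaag
Bmp5: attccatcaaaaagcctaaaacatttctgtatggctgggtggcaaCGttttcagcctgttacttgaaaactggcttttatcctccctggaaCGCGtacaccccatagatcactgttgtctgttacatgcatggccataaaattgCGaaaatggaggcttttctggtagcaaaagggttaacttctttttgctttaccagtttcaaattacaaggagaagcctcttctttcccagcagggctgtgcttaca
Nodal: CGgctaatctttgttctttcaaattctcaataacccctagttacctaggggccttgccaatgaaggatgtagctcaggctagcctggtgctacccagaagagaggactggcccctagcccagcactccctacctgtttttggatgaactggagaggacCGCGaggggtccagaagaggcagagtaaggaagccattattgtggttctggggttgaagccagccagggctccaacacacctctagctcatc
Tdgf1: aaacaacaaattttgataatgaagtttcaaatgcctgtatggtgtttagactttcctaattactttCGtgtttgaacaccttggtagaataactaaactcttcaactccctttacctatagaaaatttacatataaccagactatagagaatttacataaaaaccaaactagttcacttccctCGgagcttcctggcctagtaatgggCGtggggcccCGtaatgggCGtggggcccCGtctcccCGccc
The 4 stretches held 11, 4, 3 and 7 CpGs, where the median over 17492 gene starts was 10, so that only Bmp4 was at or above it.

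H3K4me3, a mark of active or poised promoters, was mapped in 1 library of whole E12.5 VYS, both layers together. A peak lay within 1 kb of the start in 4 of the 5 members with a start in the reference table, beside 59.2% of gene starts. The peak at Bmp4 (chr14:46385008-46390819) had a score of 3100 and spanned most of the gene, and 98.8% of all peaks scored at or below it. For Bmp5 (chr9:75775098-75778468) the score was 3031, with 74.6% of peaks at or below it. These percentiles count ties as below. Many peaks lay between these close scores, so the percentiles set the Bmp4 and Bmp5 peaks further apart than their scores do. Those at Nodal and Bmp6 had scores of 154.5 and 151.1, at percentiles 26.5 and 26.1 of all peaks, and Tdgf1 had none. Over the gene and 1 kb around it, Bmp2 and Bmp7 also held peaks, while Gdf3, Lefty1 and Lefty2 held none, so that 6 of 10 members held a peak beside 64.2% of protein-coding genes.

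Methylation was read in 2 libraries each of ysE, liver and EBs, 1 per direction of the cross. Coverage was 1.80 to 2.21 reads per listed CpG, so few CpGs near the starts reached 5 reads. Reads were counted at each CpG, so 1 read over several CpGs counts more than once. At that minimum Nodal had 0 of 22 reads methylated in CxF EBs (95% Wilson interval 0% to 14.9%), 2 of 10 in FxC liver and 84.6% of 13 in FxC ysE (57.8% to 95.7%), Tdgf1 had 90.0% of 20 in FxC liver, and Bmp5 15 of 16 in CxF EBs and 5 of 5 in FxC EBs. Bmp4 had no CpG with 5 reads within 1 kb of its start, and chromosome 13, with Bmp6, was not used here. With all CpGs counted, a setting added after the values were seen, Nodal was at 21.1% of 19 and 71.4% of 28 reads in CxF and FxC ysE (intervals 8.51% to 43.3% and 52.9% to 84.7%), 33.3% of 3 and 26.7% of 30 in liver, and 9.38% of 32 and 55.6% of 9 in EBs. Tdgf1 was at 82.4% and 96.2% in ysE, at 3 of 12 and 79.2% of 48 reads in liver, and at 10.0% of 10 and 72.7% of 44 reads in EBs, and the intervals of the 2 EB libraries did not overlap (1.79% to 40.4%, and 58.2% to 83.7%). In the same setting and order of crosses, Bmp4 had 31 of 32 and 0 of 2 reads methylated in ysE. Bmp4 had 0 of 2 and 1 of 3 in liver, and 13 of 19 and 1 of 3 in EBs. Bmp5 had 3 of 5 and 11 of 17 reads methylated in ysE. In liver Bmp5 had 11 of 11 and 1 of 4, and in EBs 17 of 18 and 28 of 34.

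Gene bodies, with all CpGs counted, gave more reads. Bmp5, covered by 301 to 664 reads per library, was methylated at 55.8% and 53.1% in ysE, at 81.9% and 81.6% in liver and at 92.6% and 85.5% in EBs, and the Wilson intervals of ysE (48.7% to 61.3%) lay apart from all others (lowest bound 78.2%). The median protein-coding gene was at 72.3% and 66.7% in the ysE libraries and at 79.0% to 86.0% in the others, so that ysE Bmp5 was at or above 19.3% and 23.7% of genes. Bmp7 did not follow, with 82.1% and 68.8% in ysE and 76.7% to 84.2% elsewhere. Bmp4 rested on fewer reads, with 77.6% of 98 and 56.0% of 25 in ysE and 10.0% of 10 and 24.2% of 91 in liver. It read 62.5% of 64 and 8.33% of 24 in the 2 EB libraries, which differed as much as the tissues did. With 2 libraries against 2 no exact test can reach a small p, so these are descriptions, and intervals cover counting error only.

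**Figure D5:**
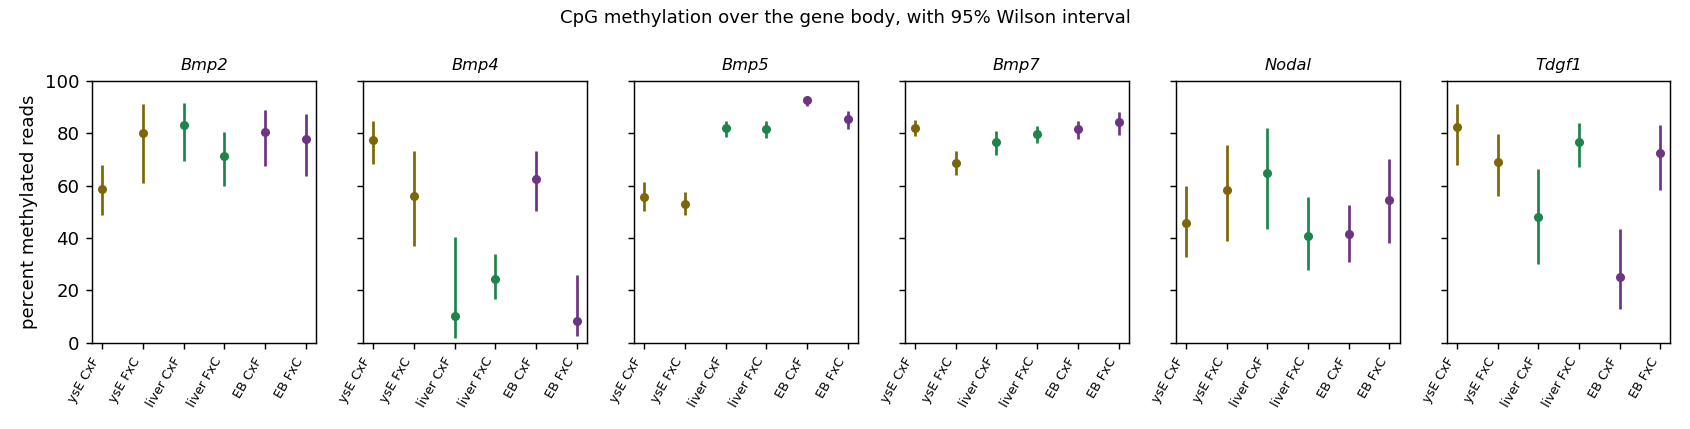
Percent of methylated reads (y axis) over the gene body of 6 members in each of 6 WGBS libraries (x axis), with 95% Wilson intervals. The ysE libraries lie at 55.8% and 53.1% for Bmp5, below the 4 others at 81.6% to 92.6%.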

How the data were processed

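RNA-seq, WGBS and H3K4me3 data were taken as the authors deposited them. Reads had been aligned to mm10, and GSNAP, MACS 1.4.2 and bedtools are named in the submitters' processing notes. The RefSeq transcript counts and RPKM values were made by the authors from those alignments. Counts of exon parts were deposited for 5 libraries. The deposited methylation files give, for each CpG line, a percent methylated and a read number, and methylated reads were recovered by rounding their product. The deposited peak file gives a MACS score for each of 22343 peaks.

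Members, lists and tests were chosen with earlier results of these data known. Transcript counts of all 11 libraries in 5 tissue groups were filtered (filterByExpr), scaled by TMM and tested with the edgeR 4.0.16 quasi-likelihood test and Benjamini-Hochberg adjustment over all transcripts at an FDR of 5%. Comparisons of days and of clones used the 4 EB libraries only. The SE is the fold change divided by the root of the F statistic. A group with 0 counts was given a floor of 3 counts over the group. Ratios and bounds for groups of 0 to 3 counts set the mean TMM-scaled level of the other group against these counts. Genes besides the 10 members were named by rule: from each of 7 pathway lists, the 2 largest fold changes called without overlap of libraries in 3 comparisons (ysE E9.25 against mesoderm, and EBs against ysE E9.25 and liver), and the 2 genes most correlated with each member of mean RPKM at least 1. Others were chosen after their values were seen. A gene that this rule named is not reported here. Exon parts were summed per library. Lines naming no gene made up 28.7% to 36.1% of the exon-part totals and were left out.

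For WGBS, reads at CpGs with at least 5 reads within 1 kb of a start were pooled, and 95% Wilson intervals were computed with scipy. Gene positions and sequences are from RefSeq GRCm38.p6, and the table of promoter sequences used here held 5 of 10 members. The files use mm10, the same build. Labels do not say that E9.25 letters share litters, and the correlation of their deviations was -0.10. The EB clones are the same at both days (correlation 0.75), so they pair the days. Replicates are pooled litters or cultures of 1 clone, and p-values measure the spread between these samples. The 4 EB libraries are d10 and d15 of clones A9 and JN, so each clone counts as 2 of the 4. In JN against A9 the replicates are the days of 1 clone, so the p-value does not measure spread between clones. E12.5 ysE has 1 library, and its comparisons take their spread from the other groups. The alternatives were other scalings, filters, tools, replicate blocks and left-out libraries. A table of DNA repeats and an exon-part file holding only zeros were not used. Software was R 4.3.3, limma 3.58.1, DESeq2 1.42.0 and Python.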

Additional observations from a re-analysis of the deposited data

Results flagged for a closer look

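By RPKM, in 7 of 10 members the change from d10 to d15 ran in opposite directions in the 2 ES clones. With 1 library per clone and day the differences were not tested. Over all 23574 transcripts with a count in all 4 EB libraries, 42.7% ran in opposite directions. Under TMM scaling the count was 6, since Bmp2 fell in both clones, beside 40.6% of transcripts. As log2 RPKM ratios of d15 over d10, Bmp5 went from -2.11 in clone A9 to 1.11 in clone JN (JN minus A9 3.22), Bmp4 from -0.74 to 1.13 (1.87) and Bmp2 from -0.75 to 0.02 (0.77). Lefty2 was at 0.53 in A9 and -1.57 in JN (-2.10), Lefty1 at 0.13 and -1.11 (-1.24), Tdgf1 at 0.42 and -0.73 (-1.15) and Gdf3 at 0.36 and -0.58 (-0.94). By RPKM, Bmp6, Bmp7 and Nodal moved the same way in both clones.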

How the results depend on the processing

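No value changed direction past its threshold under any alternative run. Of 1540 values for single members, 1447 kept their side of the threshold, 61 lost it and 32 gained it. With only the groups compared, E12.5 ysE against E9.25 ysE gave 1 member higher and 4 lower, and DESeq2 gave 3 lower, where 0 and 1 were reported. For EBs against mesoderm, where 1 was lower, limma on log2(RPKM + 0.1) gave 0, and leaving out both clone A9 libraries (chosen after seeing the data) or keeping 1 library protocol gave 2. For liver against E12.5 ysE, where 2 were higher and 2 lower, limma on log2(RPKM + 1) gave 1 higher and 1 lower, and no filter on low counts, 1 transcript per symbol, only the groups compared and limma with 0.1 each gave 1 lower. Pooled methylation at member starts was 46.5% of 43 reads in EBs and 90.9% at a minimum of 10 reads, which left 11 reads of Bmp5 alone. In liver it was 66.7% of 30 reads and 20% within 0.5 kb, which left 10 reads of Nodal without Tdgf1. Members with a peak at the start fell from 4 to 2 with scores above the median or with overlap of the start. The cause of the other shifts was not tested.

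Leaving out 1 library at a time gave 0 to 2 members higher in E9.25 ysE than in mesoderm, 0 to 3 lower at E12.5 than at E9.25, 6 to 8 higher and 1 to 2 lower in EBs than in E9.25 ysE, 4 to 8 higher in EBs than in liver, 3 to 6 higher and 0 to 2 lower in EBs than in mesoderm, 2 to 3 higher and 0 to 2 lower in liver than in E12.5 ysE, 1 to 4 higher and 0 to 1 lower in JN than in A9, and 39.5% to 100% methylation in EBs.

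With the letter as a replicate block, E9.25 ysE against mesoderm gave 6146 transcripts higher and 6133 lower, against 3401 and 4212, and 2 and 3 members as before. The crossed pairing, added after seeing the data, gave 6423 and 6560. With the day as a replicate block, JN against A9 gave 2277 and 1773 transcripts and 3 and 0 members. DESeq2 called 2046 and 1891 transcripts between ysE stages, where edgeR called 969 and 1137, and 2900 and 2551 between clones, where edgeR called 1773 and 1042. Methylation rests on 2 libraries per tissue of low depth, and E12.5 ysE on 1 RNA-seq library.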
